A study of Arabidopsis thaliana with 11 samples.

Results

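The 23 loci described here had a level of at least 5 CPM in both flower bud samples and in leaf samples 3 and 4, and under 1 CPM in leaf samples 1 and 2. They were selected on these levels from 28094 loci, using the HiSeq libraries of both buds and of leaf 1 and 2 and the GA II libraries of leaf 3 and 4. CPM, counts per 1000000, is the number of proper read pairs at a locus over the total of its library, times 1000000, with no other scaling. Flower buds and leaves of Arabidopsis thaliana were compared by paired-end sequencing of polyA RNA. All groups were wild type, were grown in soil in a greenhouse without treatment and were sampled when the first flower opens, growth stage 6.0. Flower buds gave 2 samples and leaves gave 4. A HiSeq2000 read both buds and leaf 1 and 2, each also as a multiplex library, with a further one for leaf 1 that is labelled 1b, a technical replicate of 1a, whereas a GA II, an earlier Illumina machine, read leaf 3 and 4. Whether the numbers stand for separate plants, and which leaves were taken at what size, is not in the labels. The spread behind each p-value is that of these samples and may be technical. In bulk RNA, fewer cells of a type and less RNA per cell cannot be told apart.

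As background, a plant cell that is about to divide copies its DNA in S phase and separates the copies in mitosis. The origin recognition complex and CDC6 load the replicative helicase on DNA, replication protein A coats the single strands, and repair and cohesion factors follow the fork. Many of these genes are transcribed in late G1 and S phase through promoter motifs bound by E2F factors, whereas mitotic genes follow later through MYB3R factors. Young leaves and floral organs hold many dividing cells, and most cells of a mature leaf no longer divide.

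Of the 23 loci, 8 encode proteins of DNA replication, repair or chromosome handling, 5 act on cell walls or sugars, 3 on lipids or amino acids, 4 are regulators and 3 have other roles. These groups were drawn up from the annotation after the members were known. All 23 are protein-coding genes in the RefSeq annotation of TAIR10.1. No pair of them are neighbours, and they lie on all 5 chromosomes. Their counted sequences had a median length of 1490 bases against 1413 over all tested loci, and their GC content had a median of 41% against 41.3%.

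Of the 8 DNA genes, 3 had an E2F motif close upstream of the annotated start, and their promoters are shown because all matches to this motif among the members fell in these 3. The windows are the 300 bases before the start in TAIR10.1 as RefSeq annotates it, given on the strand of the gene, 5′ to 3′; the files name no build. Capitals mark TTTCCCGC or TTTGGCGC on either strand, the latter read as GCGCCAAA on the opposite strand. AT1G20720, a RAD3-like DNA helicase, has its window at chr1:7192842-7193141 on the minus strand. The window of AT1G75150, annotated as DNA ligase-like, is chr1:28208591-28208890 on the minus strand. That of RPA70B (AT5G08020), a large subunit of replication protein A, is chr5:2571657-2571956 on the plus strand.
AT1G20720: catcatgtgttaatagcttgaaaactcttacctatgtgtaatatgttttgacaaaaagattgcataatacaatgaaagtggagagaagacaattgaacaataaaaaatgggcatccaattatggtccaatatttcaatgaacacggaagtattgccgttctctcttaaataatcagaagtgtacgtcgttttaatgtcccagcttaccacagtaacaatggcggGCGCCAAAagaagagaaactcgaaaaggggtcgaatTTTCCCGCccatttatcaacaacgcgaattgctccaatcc
AT1G75150: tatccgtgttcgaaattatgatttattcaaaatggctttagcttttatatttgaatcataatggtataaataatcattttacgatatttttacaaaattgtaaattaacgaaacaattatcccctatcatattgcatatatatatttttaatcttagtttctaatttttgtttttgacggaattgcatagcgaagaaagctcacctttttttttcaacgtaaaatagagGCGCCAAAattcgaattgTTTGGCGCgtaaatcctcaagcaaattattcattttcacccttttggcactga
RPA70B: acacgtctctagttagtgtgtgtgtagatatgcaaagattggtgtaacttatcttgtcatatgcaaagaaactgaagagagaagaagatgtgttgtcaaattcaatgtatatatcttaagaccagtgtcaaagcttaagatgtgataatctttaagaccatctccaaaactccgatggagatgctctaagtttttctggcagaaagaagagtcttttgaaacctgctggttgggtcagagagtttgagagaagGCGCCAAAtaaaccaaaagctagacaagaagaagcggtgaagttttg

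The motifs began 76 and 40 bases before the start in AT1G20720, 71 and 53 bases before it in AT1G75150 and 47 bases before it in RPA70B. No window of the 15 other members held these letters, nor did those of the other 5 DNA genes, which says only that the letters are absent from those windows. Among all 26538 windows of protein-coding nuclear loci, 286 or 1.08% held a match, and among the 11248 loci at 5 CPM or more in all 6 samples the share was 0.942%. In a list of 49 DNA replication genes, 14 windows or 28.6% held a match. This list shares ORC1B, RPA70B and BRCA1 with the members, and of these RPA70B alone held a match. A list of 53 mitosis genes, which shares TSO2 with the replication list, gave 1.89%. The AACGG core of the mitosis-specific activator element, read on both strands, was in 4 of 23 members' windows and in 6236 of all 26538. The site II element TGGGCC was in 26.1% of members' windows, 14.9% of all windows and 20.6% of those at 5 CPM or more in all 6 samples. For the G-box CACGTG the shares were 4.35%, 7.21% and 8.13%. A match is a description of these windows and does not show binding.

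The selection narrowed in an uneven way. Both buds had 5 CPM or more at 15985 loci, and leaf 3 and 4 both did at 12931. In all 4 samples 12217 loci reached that level, and 10558 loci were under 1 CPM in leaf 1 and 2. The buds reached 5 CPM at 1269 of the loci that were under 1 CPM in leaf 1 and 2, and the 23 members are 1.81% of these. Leaf 3 and 4 reached 5 CPM at only 53 such loci, of which the members are 43.4%. At 16 of those 53, both buds were under 1 CPM. At 1017 of the 1269, leaf 3 and 4 were both under 1 CPM.

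**Figure D1:**
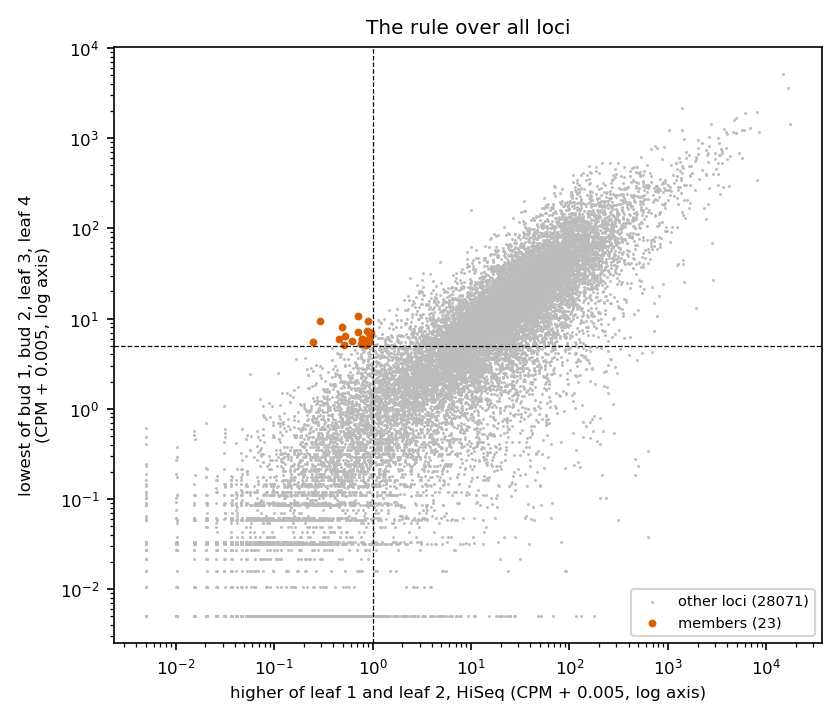
Each point is a locus, with the higher of its leaf 1 and leaf 2 HiSeq levels on the x axis and the lowest of its bud 1, bud 2, leaf 3 and leaf 4 levels on the y axis, both in CPM plus 0.005 on log axes. The 23 members, in orange, lie left of 1 and above 5 CPM, the dashed lines, at the edge of a dense cloud of loci that are at similar levels on both axes.

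Several members lay close to the limits. AT1G20720 was just inside the upper limit with a lowest level of 5.07 CPM, followed by AT4G01580 at 5.15 CPM and AT2G44580 at 5.2 CPM. Just outside were AT4G28310 at 4.9 CPM, and AT4G36850 and AT5G03390 at 4.76 CPM. At the lower limit, AT3G61100 had 0.949 CPM in its higher leaf sample, ORC1B 0.913 CPM and BRCA1 0.908 CPM. The histone variant gene HTA8 and the cohesion factor gene CTF18, both at 1.048 CPM, and the kinesin gene ATK5 at 1.089 CPM missed it by least.

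The 4 HiSeq libraries held 182707504 to 192817049 counted pairs and the other 7 libraries 34405145 to 41105722. Summed levels of 27 photosynthesis genes were 33592 and 42022 CPM in the buds, 164282 and 158571 CPM in leaf 3 and 4, and 145362 and 81028 CPM in leaf 1 and 2. Summed floral identity genes (17) gave 1437 and 1126 CPM in the buds, 26.1 and 25.4 CPM in leaf 3 and 4, and 66.2 and 79 CPM in leaf 1 and 2. AP1, AP3 and STK had 0 pairs in leaf 3 and 4, as did 3 more genes of that list, and 14 of the 17 were under 1 CPM there. For 33 anther and pollen genes the sums were 6201 and 7922 CPM in buds, 61.7 and 47.3 CPM in leaf 3 and 4, and 56.5 and 35.4 CPM in leaf 1 and 2. AP2, SEP4 and AGL8 made up most of the floral sum in the leaves, and AG had 0.765 and 0.876 CPM in leaf 3 and 4 and 0.104 and 0.24 CPM in leaf 1 and 2. The anther and pollen sums of leaf 3 and 4 overlapped those of leaf 1 and 2. The part of other cell types in the members' levels was not tested. Leaf 3 and 4 differed from leaf 1 and 2 in sequencer as well, so the sequencer and the leaf samples cannot be told apart.

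The 8 DNA genes stood at moderate levels in buds and just above the limit in leaf 3 and 4. ORC1B (AT4G12620), the largest subunit of the origin recognition complex, had 16.2 and 9.13 CPM in buds 1 and 2, 6.12 and 5.97 CPM in leaf 3 and 4, and 0.913 and 0.16 CPM in leaf 1 and 2. RPA70B had 32.4 and 14 CPM in the buds, 7 and 7.27 CPM in leaf 3 and 4, and 0.908 and 0.101 CPM in leaf 1 and 2. In both genes the buds were above leaf 3 and 4 without overlap, as at 69.8% of all tested loci on plain CPM. Bud 1 was well above bud 2 in both. BRCA1 (AT4G21070), whose product acts in homologous repair, had 12.4 and 11.4 CPM in buds, 5.47 and 6.77 CPM in leaf 3 and 4, and 0.908 and 0.229 CPM in leaf 1 and 2. TSK (AT3G18730), or TONSOKU, a nuclear protein of genome maintenance whose loss disturbs meristems, had 16.1 and 12.9 CPM in buds, 5.98 and 6.5 CPM in leaf 3 and 4, and 0.773 and 0.373 CPM in leaf 1 and 2. The bud levels of both genes lay within 1.5-fold of each other, and leaf 1 was above leaf 2 in each.

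AT1G20720 had 11.6 and 9.06 CPM in buds, 5.07 and 5.39 CPM in leaf 3 and 4, and 0.856 and 0.181 CPM in leaf 1 and 2. AT1G75150 had 11.6 and 9.31 CPM in buds, 6.03 and 5.89 CPM in leaf 3 and 4, and 0.783 and 0.24 CPM in leaf 1 and 2. AT2G44580, annotated with a sister chromatid cohesion domain, had 14 and 5.7 CPM in buds, 5.58 and 5.2 CPM in leaf 3 and 4, and 0.762 and 0.224 CPM in leaf 1 and 2. Bud 2 stood only a little above leaf 3 for this last gene. ATK1 (AT4G21270), a minus-end-directed kinesin of the spindle, had 43.1 and 30.5 CPM in buds, 5.64 and 5.31 CPM in leaf 3 and 4 and 0.804 and 0.128 CPM in leaf 1 and 2.

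The 5 cell wall and sugar genes ranged from a wide gap between buds and leaf 3 and 4 to overlapping levels. AT5G20740, an inhibitor of the invertase and pectin methylesterase family, had 144 and 150 CPM in buds, 7.99 and 8.92 CPM in leaf 3 and 4, and 0.488 and 0.186 CPM in leaf 1 and 2. BXL3 (AT5G09730), a beta-xylosidase of cell walls, had 84 and 83.3 CPM in buds, 5.98 and 6.74 CPM in leaf 3 and 4, and 0.451 and 0.192 CPM in leaf 1 and 2. Both bud samples agreed closely for these genes and no sample of another group came near them. AT3G15720, a pectin lyase-like protein of the polygalacturonase type, had 7.65 and 5.55 CPM in buds, 7.31 and 10.2 CPM in leaf 3 and 4, and 0.244 and 0.0692 CPM in leaf 1 and 2. XYP2 (AT2G13820), a xylogen-type arabinogalactan protein, had 15.4 and 7.02 CPM in buds, 6.71 and 5.73 CPM in leaf 3 and 4, and 0.84 and 0.192 CPM in leaf 1 and 2. AT3G59480, a pfkB-type carbohydrate kinase, had 9.34 and 22.2 CPM in buds, 14.6 and 13.2 CPM in leaf 3 and 4, and 0.285 and 0.245 CPM in leaf 1 and 2. Buds and leaf 3 and 4 overlapped for AT3G15720 and AT3G59480 and did not for XYP2.

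BCCP2 (AT5G15530), a biotin carboxyl carrier of the plastid acetyl-CoA carboxylase that starts fatty acid synthesis, had 104 and 160 CPM in buds, 7.08 and 8.47 CPM in leaf 3 and 4, and 0.7 and 0.666 CPM in leaf 1 and 2. AT3G59890, a dihydrodipicolinate reductase of lysine synthesis, had 22.9 and 15.4 CPM in buds, 5.5 and 5.81 CPM in leaf 3 and 4, and 0.851 and 0.383 CPM in leaf 1 and 2. AT4G19380, of the long-chain fatty alcohol dehydrogenase family, had 10.5 and 18.3 CPM in buds, 8.38 and 6.34 CPM in leaf 3 and 4, and 0.524 and 0.16 CPM in leaf 1 and 2. In all 3 the buds were above leaf 3 and 4 without overlap, by the widest margin in BCCP2. On plain CPM the same was so at 69.8% of all tested loci.

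The 4 regulators differed among themselves in the order of buds and leaf 3 and 4. LBD39 (AT4G37540), a LOB-domain repressor of anthocyanin genes that responds to nitrogen, had 9.71 and 5.64 CPM in buds, 22.5 and 19.1 CPM in leaf 3 and 4, and 0.617 and 0.00532 CPM in leaf 1 and 2. It was the only member of the 23 with both leaf 3 and 4 above both buds on plain CPM, against 16.4% of all tested loci. The leaf 2 value is 1 pair, with an exact 95% counting interval of 0.000135 to 0.0297 CPM. ARR6 (AT5G62920), a type-A response regulator that damps cytokinin signalling, had 15.4 and 9.85 CPM in buds, 9.43 and 22.3 CPM in leaf 3 and 4, and 0.602 and 0.884 CPM in leaf 1 and 2. PRMT1A (AT2G19670), a protein arginine methyltransferase, had 20 and 11.6 CPM in buds, 11.8 and 10.6 CPM in leaf 3 and 4, and 0.705 and 0.644 CPM in leaf 1 and 2. AT4G01580, a B3-domain protein, had 17.2 and 12.2 CPM in buds, 6.29 and 5.15 CPM in leaf 3 and 4, and 0.508 and 0.378 CPM in leaf 1 and 2. ARR6 and PRMT1A overlapped between buds and leaf 3 and 4, and AT4G01580 did not.

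Among the remaining 3, AT1G66760, a MATE-family efflux transporter, had 19.8 and 12.3 CPM in buds, 7.34 and 9.95 CPM in leaf 3 and 4, and 0.866 and 0.149 CPM in leaf 1 and 2. AT4G25835, an AAA-type ATPase, had 9.45 and 14.3 CPM in buds, 7.05 and 7.88 CPM in leaf 3 and 4, and 0.908 and 0.415 CPM in leaf 1 and 2. AT3G61100, annotated as a putative endonuclease or glycosyl hydrolase, had 12.4 and 8.26 CPM in buds, 7.48 and 6.95 CPM in leaf 3 and 4, and 0.949 and 0.868 CPM in leaf 1 and 2. On plain CPM, buds were above leaf 3 and 4 without overlap in each, as at 69.8% of all tested loci. With TMM factors, however, the log2 fold change was below 0 in AT4G25835 and AT3G61100.

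Levels of different genes can be set side by side only per length. Per kilobase of counted sequence, AT5G20740 was the highest member in buds, with 170 and 177 CPM per kilobase, ahead of BCCP2 with 75.6 and 117 and BXL3 with 34.6 and 34.3. AT1G20720 was the lowest, with 3.3 and 2.58 CPM per kilobase. In leaf 3 the highest was LBD39, with 22.7 CPM per kilobase and 19.2 in leaf 4, and in leaf 4 it was ARR6, with 22.9 and 9.68 in leaf 3, whereas TSK, with 1.4 and 1.53, was among the lowest. The bud samples therefore spanned a much wider range over the members than leaf 3 and 4 did.

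**Figure D2:**
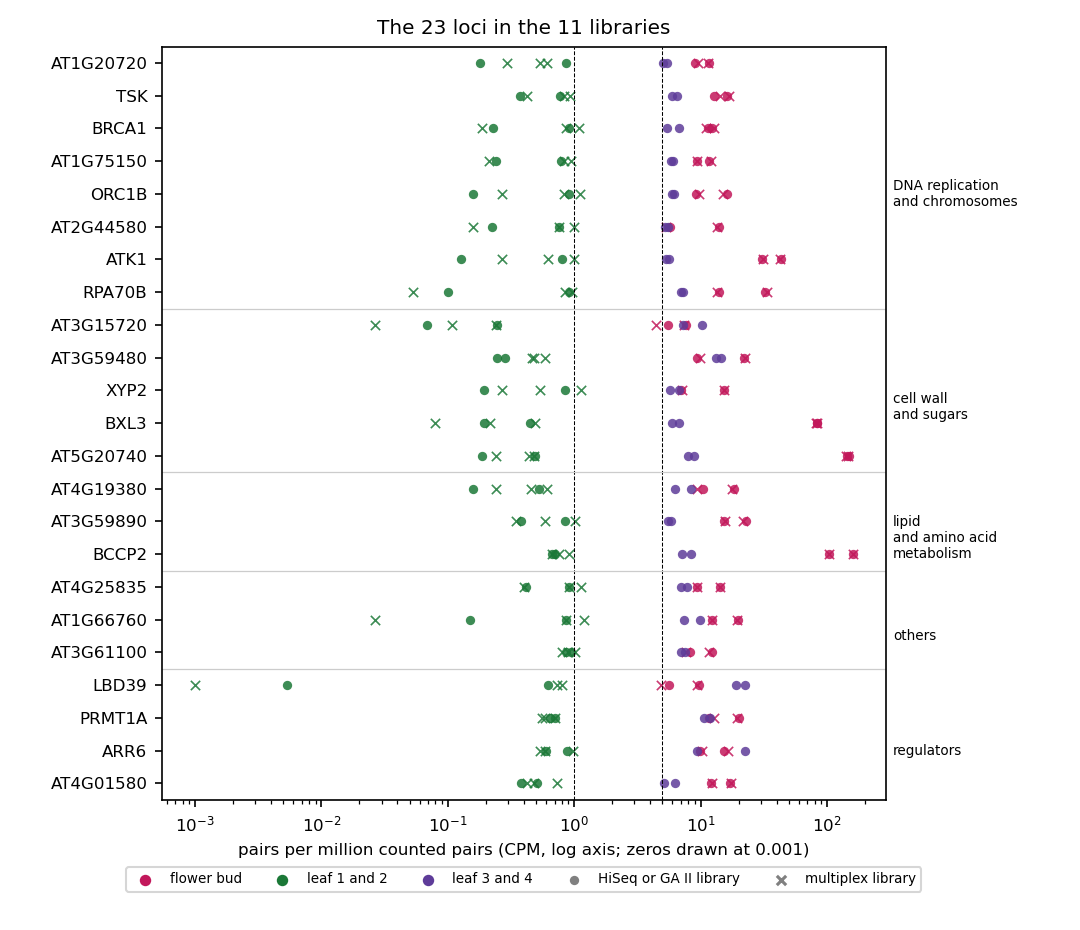
Levels of the 23 members in CPM on a log axis, coloured by group, with dots for HiSeq or GA II libraries and crosses for multiplex runs of the same samples; dashed lines mark 1 and 5 CPM. In leaf 3 and 4 the members sit between 5.07 and 22.5 CPM, while AT5G20740, BCCP2, BXL3 and ATK1 reach well above that in buds.

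The multiplex runs, which the selection did not use, resequenced the same samples and so are repeat measurements and not replicates. In both bud multiplex runs 21 of 23 members were at 5 CPM or more. The exceptions were AT3G15720 at 4.42 CPM and LBD39 at 4.88 CPM, both in bud 2. In the 3 multiplex runs of leaf 1 and 2, 16 members stayed under 1 CPM, and the highest value was 1.19 CPM, for AT1G66760 in leaf 1. Both conditions held for 14 members. The ratio of multiplex to HiSeq level had a median over the members of 0.989 in bud 1, 1 in bud 2 and 1.03 in leaf 1.

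Under the limit of 1 CPM, leaf 1 and leaf 2 differed from each other. The HiSeq level was higher in leaf 1 for 22 of 23 members, with ARR6 the exception, and the median log2 ratio of leaf 1 to leaf 2 was 1.71. The first multiplex run of leaf 1 was above that of leaf 2 for 21 members (median log2 ratio 1.43), and the second for 22. Over all 24043 tested loci 37% were higher in leaf 1 by HiSeq level. Over the 4452 loci, tested or not, that were under 1 CPM in both but had pairs in both, the share was 52%. A limit on the higher of the samples lets leaf 1 come close to it, so these members' leaf 1 levels are bounded by the selection. RPA70B had 19 pairs in the leaf 2 HiSeq library, ATK1 24 and ORC1B 30, and AT3G15720 had 13. BCCP2 at 1.05, PRMT1A and AT3G61100 at 1.09 and AT3G59480 at 1.16 had ratios of leaf 1 to leaf 2 near 1, and AT4G01580 had 1.34. With leaf 1 left out of the selection, 107 loci met it, against 25 without leaf 2, 35 without leaf 3, 27 without leaf 4 and 24 and 25 without bud 1 or bud 2.

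**Figure D3:**
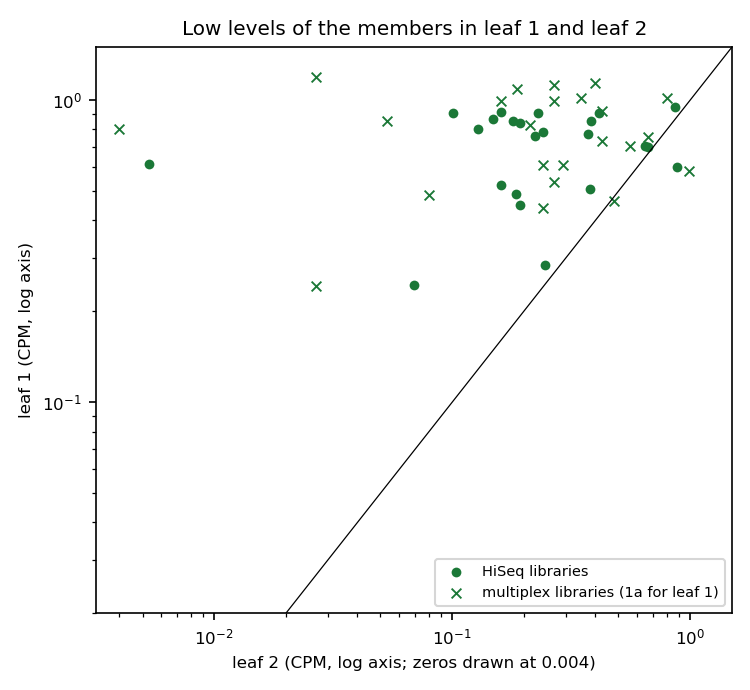
Levels of the 23 members in leaf 2 (x axis) and leaf 1 (y axis), in CPM on log axes, with dots for HiSeq and crosses for multiplex libraries and a line at equal levels. Of the dots, 22 lie above the line, and LBD39, with 1 pair in the leaf 2 HiSeq library and 0 in the multiplex library, lies farthest left.

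Between the bud samples, 18 of 23 members were higher in bud 1, with a median log2 ratio of 0.50, and 58.7% of all tested loci were higher in bud 1. AT3G59480, AT4G19380, BCCP2, AT4G25835 and AT5G20740 were higher in bud 2. Leaf 3 and 4 were close: 22 of 23 members lay within 1.5-fold of each other, ARR6 being the exception, and 11 of 23 were higher in leaf 3. Over all loci the biological coefficient of variation was 33.1% between the buds, 43.7% between leaf 1 and 2 and 10.8% between leaf 3 and 4. One shared estimate of the spread serves all 3 groups in the test that follows, which limits its precision for each.

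The selection set the same minimum in buds and in leaf 3 and 4 and did not use the difference between them. Its limits can still shape that difference. Of the loci under 1 CPM in leaf 1 and 2, 1269 reached 5 CPM in both buds and 53 in leaf 3 and 4. With that caveat, the difference between buds and leaf 3 and 4 was tested. The test was the quasi-likelihood F-test of edgeR, with p-values adjusted over 24043 loci by Benjamini and Hochberg, runs of a sample summed and library sizes scaled by TMM factors. Tissue and sequencer cannot be told apart in it. Of the 23 members, 3 were higher in buds at an adjusted p under 0.05, or 13%, against 26.3% of all tested loci. None was lower in buds by edgeR, against 16.6% of all tested loci; at an unadjusted p under 0.05 the count was 1, and DESeq2 also gave 0. The selection keeps out loci that are near 0 in either group. Among the 12217 loci at 5 CPM or more in these 4 samples, 11% were called higher in buds and 21.6% lower. Unlike the members, these loci had no limit set in leaf 1 and 2. The median log2 fold change of the members was 0.17, with a range of -2.25 to 3.33, beside a median of 0.26 over all loci and of -0.09 over those 12217.

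The 3 members higher in buds were AT5G20740, with a log2 fold change of 3.33 ± 0.46 (SE, edgeR adjusted p = 0.00178), BCCP2, with 3.31 ± 0.33 (adjusted p = 0.000567), and BXL3, with 2.93 ± 0.45 (adjusted p = 0.00258). All 3 differences exceed the spread between samples, and these 3 calls were made under every alternative run. ATK1 was next at 1.96 ± 0.70 and missed the threshold (edgeR adjusted p = 0.0597), although it was called with library sizes alone, with no filter on low counts, by DESeq2, with the replicate block and with leaf 1 and 2, or either of them, left out. The other 7 DNA genes had log2 fold changes between 0.03 ± 0.57 in AT1G75150 and 0.90 ± 0.89 in RPA70B (edgeR adjusted p = 0.974 and 0.45). These differences lie within the shared spread, which includes that between leaf 1 and leaf 2. Fitted without leaf 1 and 2, the SE was 0.25 in AT1G75150 and 0.40 in RPA70B, and none of the 7 was called. Of these 7, RPA70B was called with the replicate block (log2 fold change 1.93, edgeR adjusted p = 0.0402) and TSK with library sizes alone (1.23, edgeR adjusted p = 0.0301). At the other end were LBD39 at -2.25 ± 1.23, AT3G15720 at -1.23 ± 0.58 and ARR6 at -1.12 ± 0.45 (edgeR adjusted p = 0.178, 0.127 and 0.0869), which missed the threshold. With leaf 1 and 2, or either of them, left out of the fit, 5 members were called higher, with ATK1 and AT3G59890 added, and LBD39 and AT3G15720 were called lower in buds. Leaving out bud 2 added AT3G59480 and leaving out leaf 3 added ARR6 to the lower calls, 1 in each case.

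These fold changes depend on the scaling. TMM factors were 1.41 and 1.33 in the buds and 0.801 and 0.791 in leaf 3 and 4, and with library sizes alone the median over all loci moved from 0.26 to 1.05. On plain CPM 18 members were above leaf 3 and 4 in both buds, 1 was below and 4 overlapped, whereas 16 had a log2 fold change above 0 with TMM factors. Both buds were above on plain CPM at 69.8% of all tested loci and at 64.3% of the 12217 loci at 5 CPM or more in the same 4 samples, and both were below at 16.4% and 19%. With library sizes alone, 7 members were called higher in buds, as were 51.1% of all tested loci. PRMT1A, AT3G61100, AT4G25835 and AT3G59480 changed sign between the scalings. Selection on TMM-scaled levels would have given 22 loci, of which 12 are among the 23; of the 8 DNA genes, AT1G75150, TSK and ATK1 would remain.

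**Figure D4:**
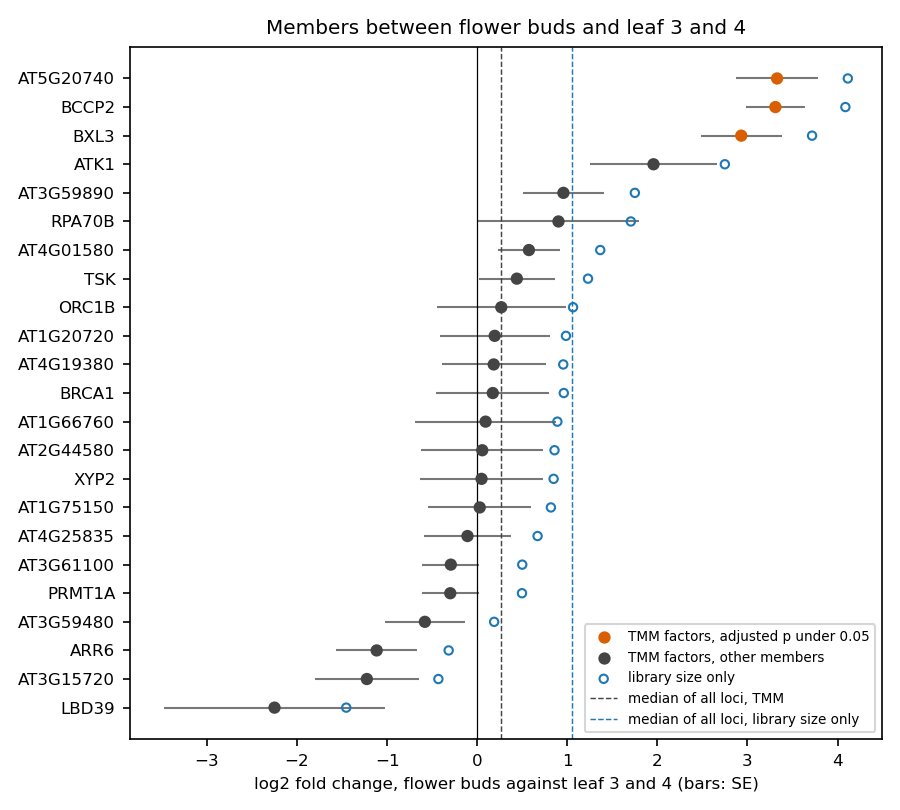
Log2 fold change of each member between flower buds and leaf 3 and 4, with bars of 1 SE; filled points use TMM factors, open points library sizes alone, and dashed lines give the median of all loci under each. AT5G20740, BCCP2 and BXL3, in orange, stand at 2.93 or more, and most other members lie near the median of all loci.

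By the contrasts that chose them, the members are separated by construction and nothing is read from it. All 23 were called higher in buds than in leaf 1 and 2 (30.5% of all tested loci were), with a median log2 fold change of 4.00 and a range of 2.89 to 8.13. All 23 were called higher in leaf 3 and 4 than in leaf 1 and 2 (12.1% of all tested loci), with a median of 3.72 and a range of 3.19 to 6.07. None was called lower in either, where 20.9% and 15.2% of all tested loci were. Both comparisons share leaf 1 and 2.

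Of 24 gene lists, the DNA replication list held 3 members, ORC1B, RPA70B and BRCA1, the hormone list held ARR6, and the other 22 lists held none. The other 46 genes of the replication list are not members. The list was chosen with earlier results of these data known, so its levels are not independent of that choice. Between leaf 3 and 4 and leaf 1 and 2, the median log2 fold change of these 46 was 2.64 against -0.07 over all loci. They were called lower in leaf 3 and 4 in 0 cases and higher in 35 (12.1% of all tested loci). That count was 11 without leaf 3 and 5 without leaf 4. In buds against leaf 1 and 2 they were called higher in 37 cases and lower in 0 (30.5% and 20.9% of all tested loci). Their median there was 3.27 against 0.15 over all loci. Between buds and leaf 3 and 4, 26.3% of all tested loci were called higher and 16.6% lower. With library sizes alone 51.1% were called higher, and with the replicate block 6850 of 24043 loci. Of the 46 replication genes, 4 were called in this comparison, 2 in each direction, with a median of 0.56 against 0.26 over all loci. With library sizes alone 27 were called higher and 0 lower, with the replicate block 17 and 2, and with leaf 1 left out 13 and 2. With leaf 2 left out the counts were 10 and 2, and with leaf 3 or leaf 4 left out none was called. The 4 were CDT1B, a helicase loading factor, at 2.06 ± 0.48, ATE2F2 at 1.16 ± 0.27, CDC6 at -1.59 ± 0.53 and TK1b, a thymidine kinase, at -0.97 ± 0.24 (SE, edgeR adjusted p = 0.0139, 0.0126, 0.0467 and 0.0177). Neither CDC6 nor TK1b was called lower in buds with library sizes alone, nor was CDC6 with upper quartile factors or with HiSeq and GA II runs only. Without bud 1 and without bud 2, log2 fold changes were 1.37 and 2.45 in CDT1B and 0.90 and 1.28 in ATE2F2. They were -2.15 and -1.27 in CDC6 and -1.18 and -0.89 in TK1b. CDC6 had 7.61 and 4 CPM in buds, 10 and 9.79 CPM in leaf 3 and 4, and 0.477 and 0.17 CPM in leaf 1 and 2, and so missed the selection by its bud 2 level.

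The mitosis list held no member, though ATK1 acts on the spindle and its relative ATK5 is in the list. This list is a broad one that also holds CYCD3;1, CYCD4;1 and KRP2, and it shares TSO2 with the replication list. Of its 53 genes, 37 were called higher and 2 lower in leaf 3 and 4 than in leaf 1 and 2, with a median of 2.54 against -0.07 over all loci (12.1% and 15.2% of which were called); the count higher was 9 without leaf 3 and 2 without leaf 4. Between buds and leaf 3 and 4, 42 were called higher in buds and 0 lower, beside 26.3% and 16.6% of all tested loci, with a median of 2.32 against 0.26. The count higher was 39 or more under each other scaling. It fell to between 15 and 27 without a bud or without leaf 3 or 4. Of 49 replication genes, 35 were at 5 CPM or more in leaf 3 and 4 and 14 were under 1 CPM in leaf 1 and 2. Of the 53 mitosis genes, 17 and 26 were. CYCB1;1, a mitotic cyclin, had 36.6 and 19.4 CPM in buds, 1.3 and 1.51 CPM in leaf 3 and 4, and 0.316 and 0.192 CPM in leaf 1 and 2. Of the members, ATK1 lay nearest to the median log2 fold change of the mitosis list between buds and leaf 3 and 4. The members in the replication list were RPA70B at 0.90 ± 0.89, ORC1B at 0.27 ± 0.71 and BRCA1 at 0.17 ± 0.63 (SE). Each SE is larger than the gap between the replication median of 0.56 and the all-loci median of 0.26. Nearness to either median therefore cannot be read. The same holds for TSK, which is not in the list, at 0.44 ± 0.425.

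**Figure D5:**
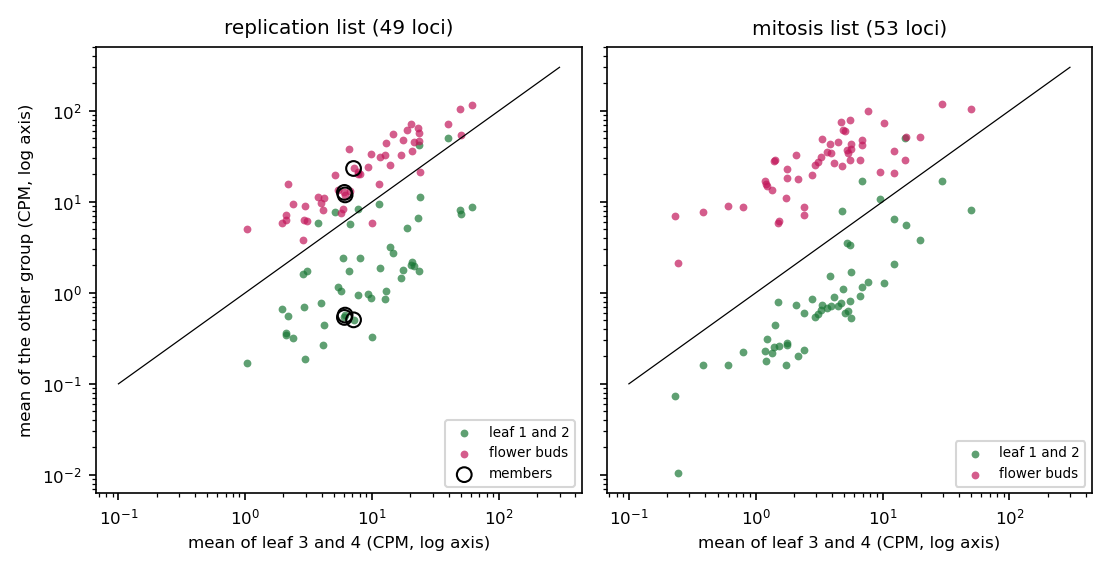
Genes of the replication list (left) and the mitosis list (right), with their mean level in leaf 3 and 4 on the x axis and in flower buds (pink) or leaf 1 and 2 (green) on the y axis, in plain CPM on log axes, and a line at equal levels. Most green points lie below the line in both panels, and the pink points lie farther above it for mitosis genes; the 3 members in the replication list are circled.

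The nearest relatives of the members were not members themselves. By protein alignment over at least 50% of the member's length, 19 of the 23 had a closest other Arabidopsis protein. Of these 19, 0 met the selection. Only 23 of 28094 loci met it, so nothing is read from that 0. Of the 19, 11 were called higher and 2 lower in leaf 3 and 4 than in leaf 1 and 2 (1 and 0 without leaf 4, 2 and 0 without leaf 3), beside 12.1% and 15.2% of all tested loci. Between buds and leaf 3 and 4, 8 were called higher in buds and 2 lower, beside 26.3% and 16.6% of all tested loci (3 higher without leaf 3 or without leaf 4, 5 without bud 1 or without bud 2). Only 5 of the 19 were at 5 CPM or more in all 6 samples. CAC1, the other biotin carboxyl carrier, 50% identical to BCCP2, had 33.6 and 86 CPM in buds, 87.6 and 76.6 CPM in leaf 3 and 4, and 37.7 and 28.8 CPM in leaf 1 and 2. Its level was thus of the same order in every group, unlike that of BCCP2. XYL4, 77.7% identical to BXL3, had 113 and 218 CPM in buds, 25.6 and 28.2 CPM in leaf 3 and 4, and 99.5 and 141 CPM in leaf 1 and 2. AT2G31390, 87% identical to AT3G59480, had 106 and 75.8 CPM in buds, 22.5 and 21.4 CPM in leaf 3 and 4, and 56.4 and 100 CPM in leaf 1 and 2. Both had their lowest levels in leaf 3 and 4. In plain CPM, which is not scaled by length, they were still above their relatives among the members there. BXL3 had 5.98 and 6.74 CPM and AT3G59480 had 14.6 and 13.2 CPM in leaf 3 and 4. For these members, a level of 5 CPM or more there was set by the selection.

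Other pairs ran in parallel at a different level. ORC1A, 86.9% identical to ORC1B, had 6.57 and 3.47 CPM in buds, 0.963 and 1.09 CPM in leaf 3 and 4, and 0.223 and 0.117 CPM in leaf 1 and 2. RPA70D, 81.1% identical to RPA70B, had 48.7 and 22.5 CPM in buds, 12.9 and 12.5 CPM in leaf 3 and 4, and 2.22 and 0.288 CPM in leaf 1 and 2. Bud 1 was above bud 2 and leaf 1 above leaf 2 in both, as in their relatives. LBD38, 56.7% identical to LBD39, had 11.6 and 8.43 CPM in buds, 28.9 and 28.8 CPM in leaf 3 and 4, and 4.49 and 1.1 CPM in leaf 1 and 2, the same order of groups as LBD39. It was lower in buds than in leaf 3 and 4 with a log2 fold change of -2.31 (edgeR adjusted p = 0.0225), a call that was lost when any 1 of these 4 samples was left out. Among type-A response regulators, RR5, 79.7% identical to ARR6, was lower in buds at -1.86 ± 0.40 (SE, edgeR adjusted p = 0.00964), as were ARR4 at -2.17 ± 0.38 and ARR7 at -1.62 ± 0.48 (edgeR adjusted p = 0.00456 and 0.0327). With library sizes alone, ARR4 was still called, while RR5 at -1.06 and ARR7 at -0.82 were not. ARR15 at -0.21 ± 0.53 missed the threshold and RR16 was higher at 0.82 ± 0.26 (edgeR adjusted p = 0.776 and 0.0389). The call of RR16 was lost with RLE factors and when any 1 of the buds or leaf 3 or 4 was left out. That of ARR7 was also lost with the replicate block, without bud 2 and without leaf 4, and that of RR5 without leaf 4.

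Counts of 5 members are uncertain because at least 100 bases of an annotated transcript are at least 95% identical to another locus. PRMT1A, BCCP2 and ARR6 share such a stretch with an overlapping neighbour, XYP2 with AT3G26740 and AT1G20720 with AT2G05635.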

How the data were processed

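PolyA RNA was measured in 11 libraries of 6 samples. Per the file headers, the authors deposited a raw count of proper read pairs per locus, in 1 file per library; Bowtie2 2.0 is named in the submitters' processing notes. Build, annotation release, strand use and the handling of multiply mapped reads were not stated. Locus names matched TAIR10.1 for 27320 of 28094 loci. The members, gene lists and role groups were chosen with earlier results of these data known. CPM used each library's total. For tests, runs of a sample were summed, filtered with filterByExpr (minimum count 10) and scaled by TMM. They were fitted over 3 groups with edgeR 4.0.16 in R 4.3.3, with DESeq2 1.42.0 as an alternative. The fit was also run on simulated counts with a single dispersion for all samples, unlike the unequal spread here, and nothing is read from it. BLAST+ 2.17.0 gave the closest proteins. Motifs were searched on both strands of 300 bases. Members were named where they stood in a list, had the highest or lowest levels, were called or lay nearest a limit, and all 23 are given. Exact 95% intervals and the floor of 3 pairs cover counting error only.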

Additional observations from a re-analysis of the deposited data

How the results depend on the processing

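The count of 23 loci became 22 with TMM-scaled sizes, 0 at limits of 10 and 0.5 CPM, 434 at 2 and 2 CPM, 14 with multiplex runs, and 24 to 107 with 1 sample left out. Members called higher in buds than in leaf 3 and 4 numbered 3, and 7 with library size only, 4 with DESeq2, 5 with flower buds and leaf 3 and 4 only, 6 with the replicate block and 3 to 5 with 1 sample left out. Members called lower numbered 0, and 2 with flower buds and leaf 3 and 4 only and 0 to 2 with 1 sample left out: AT3G59480 without bud 2, ARR6 without leaf 3, and AT3G15720 and LBD39 without leaf 1 or leaf 2. The labels do not say whether buds and leaves of the same replicate number are linked beyond that number. Differences between replicates 1 and 2 in buds and in leaf 1 and 2 had a correlation of 0.255 across 24043 loci. This rests on 2 pairs, and a link was not tested. Of 345 log2 fold changes, 300 kept sign and call, 23 passed the threshold and 22 changed sign; the cause was not tested. With library size only, PRMT1A was at 0.50, AT3G59480 at 0.19, AT3G61100 at 0.50 and AT4G25835 at 0.67. AT1G75150 was at -0.032 with RLE factors and -0.030 with DESeq2 and at -0.006 with flower buds and leaf 3 and 4 only, XYP2 at -0.007 with RLE factors and -0.005 with DESeq2, and AT4G25835 at 0.082 with the replicate block. With 1 sample left out the ranges were -0.029 to 0.29 for AT1G20720, -0.32 to 0.34 for AT1G66760, -0.19 to 0.11 for AT1G75150, -0.66 to 0.45 for XYP2, -0.77 to 0.51 for AT2G44580, -0.22 to 0.55 for ORC1B, -0.37 to 0.48 for AT4G19380 and -0.52 to 0.11 for AT4G25835. Alternatives for the lists and closest proteins, and the shares over loci at 5 CPM or more in the 4 samples, were added after seeing the data. With 2 samples a group, small folds cannot be told from the spread, and at 1 pair in leaf 2 the level of LBD39 is set by counting error.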
